A study of Mus musculus with 2 samples.

Results

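A set of 39 interferon-induced genes was followed through 5 cell classes of mouse brain tissue carrying G422 glioma. The genes were given by name, and all 39 of them matched a symbol among the 27998 genes of the deposited tables. They fall into 5 nucleic acid sensors, 4 transcription factors, 3 genes of the ISG15 system, 19 antiviral effectors and 8 GTPases. The classes were named from marker genes and hold 5194 control and 2575 LTS tumour-like cells, 761 and 631 microglia-like cells, 428 and 228 monocyte-like cells, 95 and 482 T cell-like cells, and 141 and 75 endothelial-like cells, of 8310 control and 4835 LTS cells in all. They are called tumour, microglia, monocytes, T cells and endothelium here.

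Both libraries came from Kunming mice, an outbred stock, with the line G422-GBM growing in the brain. The control mice were untreated and their tissue was taken 7 days after inoculation. LTS stands for long-term survivors, mice alive more than 100 days after a combined therapy whose agents are not named in the sources used here. They were inoculated in the opposite side of the brain, lived a further 100 days or more, and gave tissue on a day 7 that the sources do not tie to one inoculation. Both suspensions were enriched for immune cells on a Percoll density gradient, so the share of each class reflects that step too. Each group is 1 library, and the number, sex and age of the animals are not given in the sources used here. No difference between the groups therefore has a replicate check, no p-value is given, and every interval covers counting error only.

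Interferons are secreted proteins that make cells resistant to viruses and visible to lymphocytes. Type I interferons signal through IFNAR1 and IFNAR2 to a complex that includes STAT2 and IRF9 and binds a DNA element called ISRE. Interferon gamma, made mostly by T cells and NK cells, signals through IFNGR1 and IFNGR2 to genes with another element called GAS, and many target genes answer to both. In the brain, microglia and recruited monocytes are known to respond to both types.

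The promoters show which of these elements the members carry, so the window from 250 bases before to 50 bases after each start site was read from RefSeq (GRCm38.p6). Of the 39 members 31 had an entry, and Usp18, Ifi27l2a, Rtp4, Zbp1, Dhx58, Gbp4, Iigp1 and Parp14 had none. The ISRE letters, GAAA and again GAAA with any 2 bases between them on either strand, were in the window of 19 of the 31 members (61.3%) and of 1079 of all 27025 genes with an entry (3.99%). The GAS letters, TTCNNNGAA, were in 9 of the 31 (29.0%) and in 9.55% of all genes. All 3 sensors with an entry and 5 of 6 GTPases held the ISRE letters, against 1 of 4 transcription factors. A match is a description of the letters, not of bound sites. The windows below are 5′ to 3′ on each gene's strand, with matches in capitals, and show the main arrangements.
Isg15 at chr4:156200769-156201068 (minus strand) has 3 overlapping ISRE matches, and Ifit1 at chr19:34640639-34640938 (plus) has 2 separate ones.
Isg15: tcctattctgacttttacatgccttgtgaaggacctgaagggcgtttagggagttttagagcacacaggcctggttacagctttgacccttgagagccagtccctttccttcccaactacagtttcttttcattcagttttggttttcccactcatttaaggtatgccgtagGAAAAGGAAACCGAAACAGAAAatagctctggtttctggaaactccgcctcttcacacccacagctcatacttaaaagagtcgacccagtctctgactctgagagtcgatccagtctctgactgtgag
Ifit1: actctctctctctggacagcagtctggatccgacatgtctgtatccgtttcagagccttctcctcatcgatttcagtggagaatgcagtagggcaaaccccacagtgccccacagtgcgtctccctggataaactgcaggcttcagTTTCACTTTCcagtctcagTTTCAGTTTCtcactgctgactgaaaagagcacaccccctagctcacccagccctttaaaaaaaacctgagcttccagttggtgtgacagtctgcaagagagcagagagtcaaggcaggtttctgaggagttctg
Ifitm3 at chr7:141010695-141010994 (minus) has 2 ISRE matches and a GAS match that overlaps one of them. Gbp7 at chr3:142530086-142530385 (plus) has 1 ISRE match and 2 GAS matches.
Ifitm3: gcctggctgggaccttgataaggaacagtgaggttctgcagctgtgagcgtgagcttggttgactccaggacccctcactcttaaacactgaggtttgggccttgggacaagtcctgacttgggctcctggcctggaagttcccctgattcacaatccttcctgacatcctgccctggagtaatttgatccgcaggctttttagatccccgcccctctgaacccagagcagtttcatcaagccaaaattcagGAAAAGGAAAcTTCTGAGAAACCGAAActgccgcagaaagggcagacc
Gbp7: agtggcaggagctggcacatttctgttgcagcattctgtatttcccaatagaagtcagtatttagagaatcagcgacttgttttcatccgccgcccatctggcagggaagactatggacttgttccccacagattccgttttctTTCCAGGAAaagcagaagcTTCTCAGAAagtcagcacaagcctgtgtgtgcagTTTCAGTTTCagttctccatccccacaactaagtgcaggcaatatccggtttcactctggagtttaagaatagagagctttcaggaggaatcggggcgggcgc
Irf1 at chr11:53769764-53770063 (plus) has a GAS match alone at its first listed start, and none at its second.
Irf1: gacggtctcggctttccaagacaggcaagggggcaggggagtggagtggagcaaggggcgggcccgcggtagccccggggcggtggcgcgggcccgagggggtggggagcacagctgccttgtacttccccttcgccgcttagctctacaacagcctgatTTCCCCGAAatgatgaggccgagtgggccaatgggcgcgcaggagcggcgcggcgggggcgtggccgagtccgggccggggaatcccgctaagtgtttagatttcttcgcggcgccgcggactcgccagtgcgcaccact
Apol9a at chr15:77411031-77411330 (minus) and Apol9b at chr15:77728822-77729121 (plus) are shown because their windows were identical at 278 of 278 positions once the first ISRE match was aligned. Reads of this pair may be split between them by the counting, so their values are uncertain.
Apol9a: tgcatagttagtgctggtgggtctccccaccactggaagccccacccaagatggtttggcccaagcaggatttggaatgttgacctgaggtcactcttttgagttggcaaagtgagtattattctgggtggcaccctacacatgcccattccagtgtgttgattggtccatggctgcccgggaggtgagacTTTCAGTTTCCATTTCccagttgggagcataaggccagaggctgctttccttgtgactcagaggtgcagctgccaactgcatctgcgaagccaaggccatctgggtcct
Apol9b: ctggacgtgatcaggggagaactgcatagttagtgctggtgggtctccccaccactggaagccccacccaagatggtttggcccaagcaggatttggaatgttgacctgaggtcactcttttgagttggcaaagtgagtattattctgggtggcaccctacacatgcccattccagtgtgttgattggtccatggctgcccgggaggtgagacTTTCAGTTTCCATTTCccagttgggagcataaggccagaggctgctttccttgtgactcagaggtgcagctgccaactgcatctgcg

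The control and LTS libraries held 165796852 and 149413534 UMIs (unique molecular identifiers, each standing for 1 captured transcript), and the kept cells had medians of 14890 and 18779. Median UMIs per cell ran from 2085 in control T cells to 40905 in LTS tumour cells. Tumour cells had 0.983 and 0.922 CPM (UMIs scaled to a common total per class and library) of Y-linked genes, against 82.8 to 180 in the other classes, and 2.28 and 1.91 CPM of the leukocyte gene Ptprc. Low levels of both were part of the rule that named this class, so these values are not a separate check of it. Of the 95 control and 482 LTS T cells, 63.2% and 88.8% had a UMI of a Cd3 gene once each cell was thinned to 1000 UMIs, and 5.26% and 0.622% had one of the NK genes Ncr1 or Klrb1c. The libraries shared 19 barcodes of 1000 or more UMIs, where independent draws from the barcode list would give 7.3. Barcodes of 1 to 100 UMIs, called uncalled here, served as the measure of free RNA.

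Taken as whole classes, monocytes and microglia carried the members at several times the tumour level in both libraries. A cluster of LTS microglia described below was under the tumour level. Summed over the 39 members, the level was 10109 CPM in control and 9946 in LTS monocytes, and 7576 and 7341 in microglia. T cells stood at 5457 and 3441 CPM, endothelium at 4436 and 3978, and tumour cells at 2140 and 2081. Uncalled barcodes gave 2680 and 2723 CPM, so the tumour level was under that of free RNA. Ifitm3, Bst2 and Ifi27l2a made up 48.6% to 65.5% of these sums.

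Against tumour cells, 32 of 36 members past the filter were at least 2-fold higher in control microglia (background 14.6% of all genes tested) and 31 of 36 in LTS microglia (background 16.6%). The filter was a mean of 20 CPM over the 2 sides compared. In monocytes the counts were 31 of 35 (background 14.9%) and 33 of 36 (background 17.2%). In T cells they were 21 of 34 (background 11.3%) and 16 of 27 (background 12.7%), and in endothelium 14 of 28 (background 8.85%) and 10 of 26 (background 11%). A member that passed through the higher side alone counts here as well, so these shares describe the passing members and not all 39.

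Free RNA was set beside the classes in the same way. Monocytes held 34 of 36 control and 33 of 36 LTS members at 2 or more times the uncalled level (background 16% and 15.9%), and microglia 30 of 36 and 27 of 36 (background 15.9% and 15.4%). T cells held 19 of 33 and 11 of 29 (background 12.7% and 11.6%), and endothelium 11 of 29 and 9 of 27 (background 10.4% and 10.5%). Tumour cells held 0 of 24 in each library (background 0.208% and 0.186%). Here too a member could pass through the class level alone. Ifih1 in control monocytes did so, at 98.7 CPM against 5.28 CPM in uncalled barcodes. These shares therefore describe the passing members and not all 39. Free RNA and the tumour cells' own level cannot be told apart by these sums.

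The class with the highest level was the monocyte class for 26 of 39 members in the control library and 27 in the LTS library, 24 of them in both. For 17 and 19 of these the counting interval of the ratio to the next class lay above 1, and for the rest the first 2 classes did not differ beyond counting error. Microglia led for 7 and 8 members, T cells for 3 in each (Apol9b, Gbp4 and Igtp), endothelium for Gbp3 and Iigp1 in control only, and tumour cells for Apol9a. The leading class was not counted over all genes, so these counts describe the members and not a trait particular to them. The heat map of all members shows the pattern by role.

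**Figure D1:**
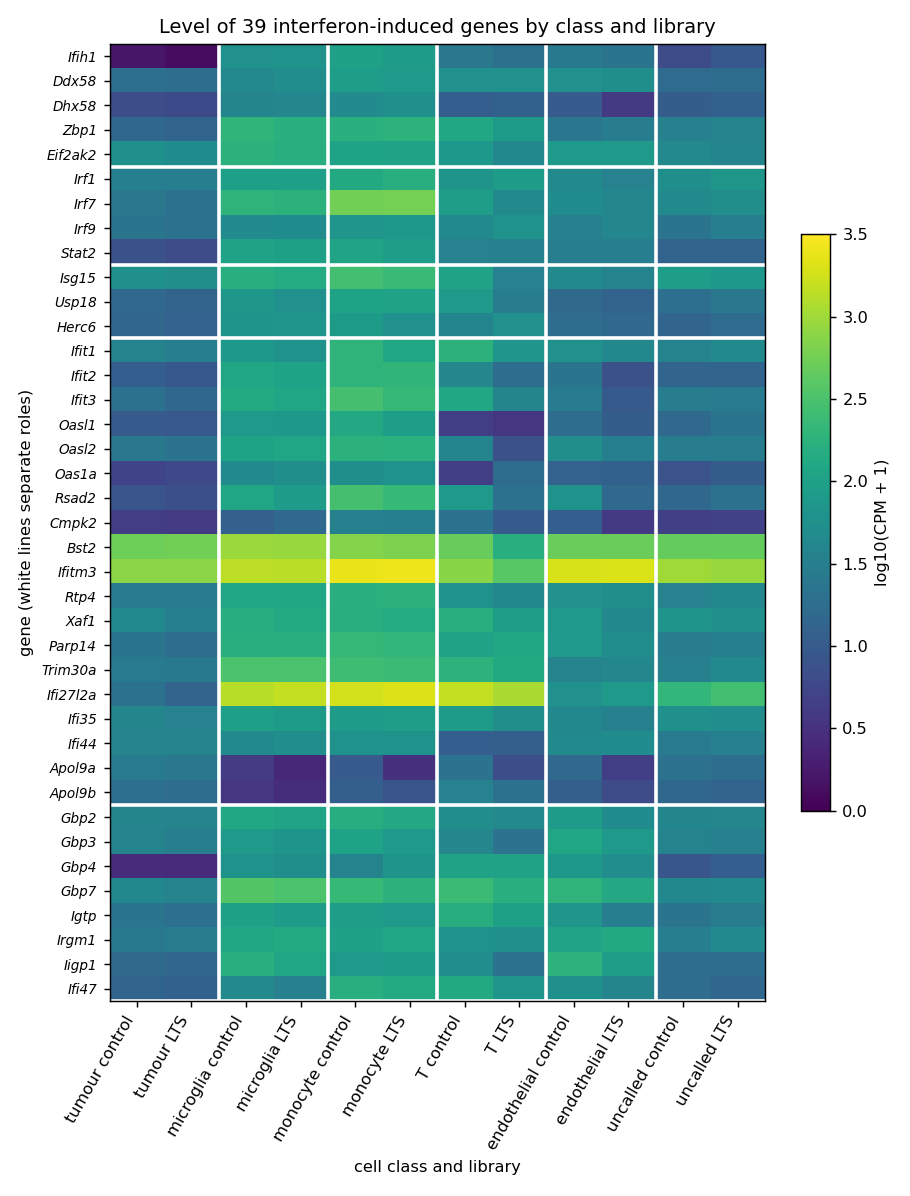
Level of each of the 39 members, as log10(CPM + 1), in the 5 classes and in uncalled barcodes of the control and LTS libraries (columns, 1 value per library, no replicates), with rows ordered by role. Monocyte and microglia columns are the brightest for most rows, while Ifitm3 and Bst2 are bright in every class and Apol9a is darkest in microglia.

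Among the sensors, Eif2ak2, which encodes the RNA-activated kinase PKR, stood at 179 CPM in control and 160 in LTS microglia, 106 and 102 in monocytes, 71.6 and 42.6 in T cells, 74.1 and 76.0 in endothelium and 56.4 and 48.7 in tumour cells. Zbp1, a sensor of left-handed nucleic acids, was at 195 and 164 CPM in microglia, 167 and 184 in monocytes, 119 and 81.0 in T cells, 22.5 and 29.6 in endothelium and 13.8 and 12.4 in tumour cells. Ddx58, the RNA helicase RIG-I, was at 89.7 and 76.0 CPM in monocytes, 43.3 and 50.4 in microglia, 58.0 and 57.4 in T cells, 58.4 and 54.6 in endothelium and 18.2 and 17.4 in tumour cells. The sensors thus differed in which class led, with tumour cells lowest for Zbp1 and Ddx58 in both libraries and for Eif2ak2 in control only. Ifih1, the helicase MDA5, was nearly missing from tumour cells at 0.650 and 0.298 CPM, against 98.7 and 82.5 in monocytes. Dhx58, the third helicase of that family, was at 5.74 and 5.15 CPM in tumour cells and 47.3 and 55.7 in monocytes.

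Irf7, the factor that amplifies type I interferon production, separated monocytes from every other class. It stood at 573 and 581 CPM in monocytes, 186 and 174 in microglia, 88.7 and 46.8 in T cells, 49.7 and 40.6 in endothelium and 23.5 and 20.1 in tumour cells. Monocytes exceeded microglia 3.07-fold in control (95% interval 2.79 to 3.38). Irf1, an early factor downstream of interferon gamma, was at 131 and 153 CPM in monocytes, 92.2 and 93.6 in microglia, 64.8 and 84.2 in T cells, 44.5 and 34.3 in endothelium and 31.3 and 30.0 in tumour cells. Irf9, the DNA-binding part of the type I complex, spanned a narrower range, from 20.9 and 19.3 CPM in tumour cells to 66.7 and 72.4 in monocytes. Stat2, its partner, ranged from 6.39 and 5.45 CPM in tumour cells to 110 and 89.0 in monocytes and 105 and 95.1 in microglia.

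Isg15 encodes a ubiquitin-like protein that is attached to other proteins. It was at 279 and 231 CPM in monocytes, 157 and 143 in microglia, 102 and 34.2 in T cells, 46.9 and 35.99 in endothelium and 56.3 and 52.4 in tumour cells. Usp18, which removes ISG15 and dampens IFNAR signalling, was at 108 and 102 CPM in monocytes, 70.1 and 57.3 in microglia, 78.4 and 28.4 in T cells, 15.3 and 12.2 in endothelium and 14.6 and 11.8 in tumour cells. Herc6, the ligase that attaches ISG15 in mice, was at 79.9 and 57.2 CPM in monocytes, 63.2 and 67.9 in microglia, 37.5 and 58.4 in T cells, 16.7 and 14.5 in endothelium and 13.5 and 11.7 in tumour cells. In T cells the first 2 were lower in LTS, and Herc6 had the higher value there.

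The effectors with most UMIs were Ifitm3, Bst2, Ifi27l2a and Xaf1. Ifitm3, which blocks virus entry at membranes, was at 2487 and 2546 CPM in monocytes, 1950 and 2000 in endothelium, 1424 and 1372 in microglia, 781 and 781 in tumour cells and 747 and 394 in T cells. Bst2, or tetherin, which holds budding virions at the cell surface, was at 946 and 919 CPM in microglia, 707 and 641 in monocytes, 538 and 570 in tumour cells, 511 and 510 in endothelium and 477 and 155 in T cells. Both had many UMIs in every class, but uncalled barcodes held 1014 and 908 CPM of Ifitm3 and 468 and 466 of Bst2. In T cells the amount of tumour RNA, given below, would supply 265 of the 477 CPM of Bst2 in control. It would supply 102 of the 155 CPM in LTS. The part of free RNA was not tested. Ifi27l2a, a small interferon-inducible protein, was at 1817 and 2091 CPM in monocytes, 1531 and 1123 in T cells and 1341 and 1503 in microglia. It was at 58.4 and 76.6 CPM in endothelium and 18.9 and 12.7 in tumour cells, so it set the 3 leukocyte classes apart when taken whole. The LTS microglia of cluster 13, described below, held 124 CPM, under the 274 CPM of LTS uncalled barcodes. Xaf1, linked to cell death, was at 161 and 142 CPM in monocytes, 149 and 139 in microglia, 160 and 91.0 in T cells, 75.1 and 41.8 in endothelium and 44.8 and 31.4 in tumour cells. The IFIT genes, whose proteins bind foreign RNA, were highest in monocytes as well: Ifit3 stood at 291 and 216 CPM there and at 19.5 and 13.6 in tumour cells.

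Apol9a went against the general order. It was at 25.5 and 23.9 CPM in tumour cells, 20.5 and 5.79 in T cells, 14.8 and 3.48 in endothelium, 9.03 and 2.17 in monocytes and 3.07 and 1.49 in microglia. Apol9b was at 18.03 and 17.0 CPM in tumour cells and 2.64 and 1.86 in microglia, but at 34.1 and 19.5 in T cells. Both encode apolipoprotein L family proteins, and the uncalled level of Apol9a was 20.2 and 17.1 CPM.

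GTPases of the GBP and IRG families attack membranes around intracellular pathogens, and many answer mainly to interferon gamma. Gbp7 was at 370 and 318 CPM in microglia, 220 and 177 in monocytes, 242 and 155 in T cells, 189 and 128 in endothelium and 41.7 and 36.2 in tumour cells. Gbp2 was at 151 and 127 CPM in monocytes, 125 and 110 in microglia, 81.8 and 49.9 in endothelium, 51.2 and 43.7 in T cells and 38.2 and 35.7 in tumour cells. Gbp3 was at 115 and 76.0 CPM in endothelium, 106 and 76.7 in monocytes, 78.0 and 63.9 in microglia, 40.9 and 20.5 in T cells and 35.99 and 29.9 in tumour cells. The LTS value was the lower one in every class for these 3. Irgm1, a regulator of the IRG GTPases, was at 125 and 135 CPM in microglia, 111 and 131 in endothelium, 99.4 and 113 in monocytes, 61.4 and 55.8 in T cells and 25.1 and 28.7 in tumour cells. Igtp led in T cells at 150 and 97.3 CPM, 1.53-fold over microglia in control (1.10 to 2.09). Members of the GBP family resemble each other in sequence, so reads may be split between them.

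The comparison of the 2 libraries asks how interferon-induced genes in the tissue of the survivors compare with those in the tissue of the untreated control mice. T cells showed the clearest difference, with lower values in LTS, and endothelium a smaller one in the same direction. The median log2 ratio of LTS over control, on the log2(CPM + 5) scale, was -0.63 over 33 members in T cells (all genes -0.14) and -0.31 over 29 in endothelium (all genes -0.01). It was -0.10 over 36 members in microglia (all genes -0.01), -0.06 over 37 in monocytes (all genes -0.04) and -0.09 over 19 in tumour cells (all genes -0.01). At least 2-fold lower in LTS were 9 of 33 members in T cells (background 6.11% of genes), 1 of 29 in endothelium (background 0.354%), and 0 in microglia (background 0.343%), monocytes (background 1.5%) and tumour cells (background 0.126%). The filter is on the mean of both libraries, so Oasl2, Rsad2 and Ifit2 in T cells and Rsad2 in endothelium passed through their control level alone and had to differ. These counts describe the members that passed. No member past the filter was at least 2-fold higher in LTS in any class, against backgrounds of 2.81% in T cells, 0.231% in endothelium, 0.131% in microglia, 0.238% in monocytes and 0% in tumour cells.

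**Figure D2:**
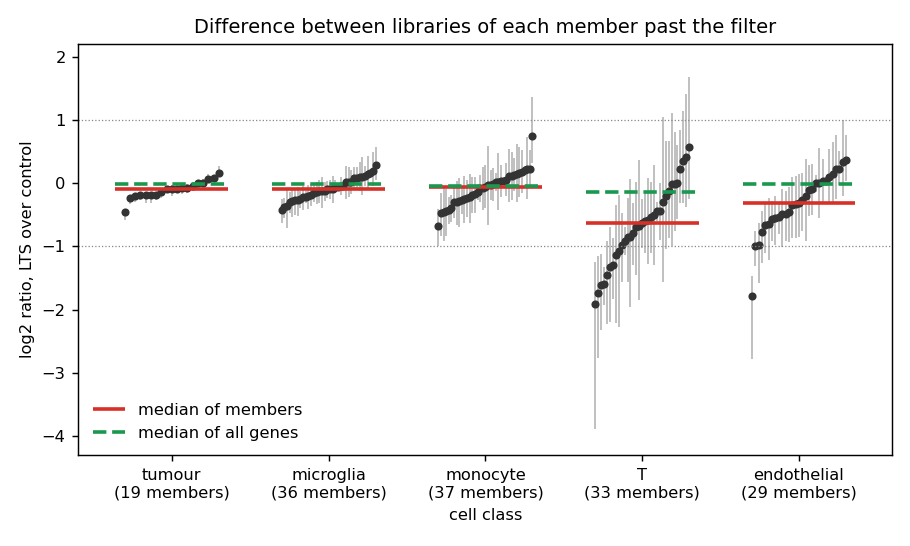
Log2 ratio of LTS over control for each member past the filter, in order of size within each class, with 95% counting intervals of the ratio without pseudocount (grey), the members' median (red) and the median of all genes tested (green, dashed). Dotted lines mark a 2-fold difference. T cells have the lowest median, at -0.63, and tumour cells the narrowest spread.

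In T cells the members lower in LTS were led by antiviral effectors and ISG15 genes. Oasl2, an OAS-like protein, was at 37.5 CPM (11 UMIs) in control and 6.31 CPM (12 UMIs) in LTS, a log2 ratio of -1.91, and at 29.3 and 29.5 CPM in uncalled barcodes. Rsad2, or viperin, which makes a chain-terminating nucleotide, was at 78.4 and 19.99 CPM, a log2 ratio of -1.74. Ifit3 was at 126 and 37.9 CPM, a log2 ratio of -1.61. These 3, with the values above for Bst2 (-1.60), Isg15 (-1.45) and Usp18 (-1.32), had intervals of the ratio below 1. Ifit1, at 174 and 67.9 CPM (-1.30), Iigp1, at 51.2 and 20.5 CPM (-1.14), and Ifit2, at 40.9 and 16.8 CPM (-1.07), complete the 9. In control, Iigp1 rested on 15 UMIs with 40% in 1 cell, and Ifit2 on 12 UMIs with 25% in 1 cell. A single cell held 21.6% of the control UMIs of Ifit3, and a single cell 21.7% of those of Rsad2. The interval lay below 1 for 17 of 33 members (background 16.9%) and above 1 for 0 (background 6.56%).

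By role, the summed level in control T cells was 1.67-fold that in LTS T cells for the effectors (95% interval 1.57 to 1.79), 1.80-fold for the ISG15 system (1.35 to 2.39), 1.49-fold for the GTPases (1.29 to 1.71) and 1.34-fold for the sensors (1.05 to 1.71). For the transcription factors it was 1.03-fold (0.783 to 1.33). Among the members past the filter, the largest log2 ratios in T cells belonged to Herc6 (0.58), Irf9 (0.42) and Irf1 (0.35), and their counting intervals spanned 1. Oas1a, under the filter, was at 3.41 CPM (1 UMI) in control and 16.3 CPM (31 UMIs) in LTS. Its log2 ratio was 1.34, and its interval spanned 1 as well. Gbp4 was at 102 CPM in each library. The factors did not move as one: Irf7, at 88.7 and 46.8 CPM, was 1.89-fold higher in control (1.17 to 2.96). Whether the roles differ was not tested.

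The composition of the T class and its free RNA differed between the libraries too. Cells with a UMI of Cd8a or Cd8b1, after thinning, were 16.8% of control and 45.9% of LTS T cells. Tumour marker genes stood at 49.3% of their tumour level in control T cells and 17.96% in LTS T cells (median of 11 markers, range 14.9% to 111% and 11.6% to 52.7%). RNA in these amounts would give 1054 of the 5457 CPM of members in control (19.3%) and 374 of the 3441 CPM in LTS (10.9%). With it taken off and the rest rescaled, the median log2 ratio was -1.15 (all genes -0.20) and 23 of 34 members were at least 2-fold lower, against 14.1% of all genes. The rescaling also lowers genes that tumour cells lack, as with Gbp4, which went from 0.00 to -0.67, so this count is not read as a result about the members. With median-of-ratios scaling the members' median was -0.38 and that of all genes 0.10, and 7 members were at least 2-fold lower. The share of all genes called with that scaling is not given here, so the count describes those members only.

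Within T cell subsets the summed level kept its direction. Cells with both Cd3 and Cd8 UMIs (19 control, 268 LTS) were at 4262 and 2766 CPM, 1.54-fold higher in control (1.38 to 1.72). Cells with Cd3 and no Cd8 UMI (57 and 199) were at 6615 and 4302 CPM, also 1.54-fold (1.44 to 1.64). Cells with no Cd3 UMI (19 and 15) were at 2928 and 2526 CPM, 1.16-fold (0.872 to 1.54). Tumour marker genes stood at 59.7% of their tumour level in control and 16.0% in LTS for the first subset. The values were 39.7% and 20.1% for the second, and 40.9% and 16.5% for the third. Median UMIs per cell were 2575 and 3389, 2170 and 3132, and 1523 and 1562. The split used unthinned UMIs, so the lack of a Cd3 or Cd8 UMI depends on depth too. The part of these differences was not tested. The summed markers of other cells in the T class were 375 and 286 CPM for microglia, 1542 and 2332 for monocytes, 177 and 222 for NK cells and 47.7 and 13.2 for plasmacytoid dendritic cells. The monocyte list stood at 1274 and 1355 CPM in tumour cells too, so it is not read as an amount of monocytes. The part of other cells in the difference was not tested.

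**Figure D3:**
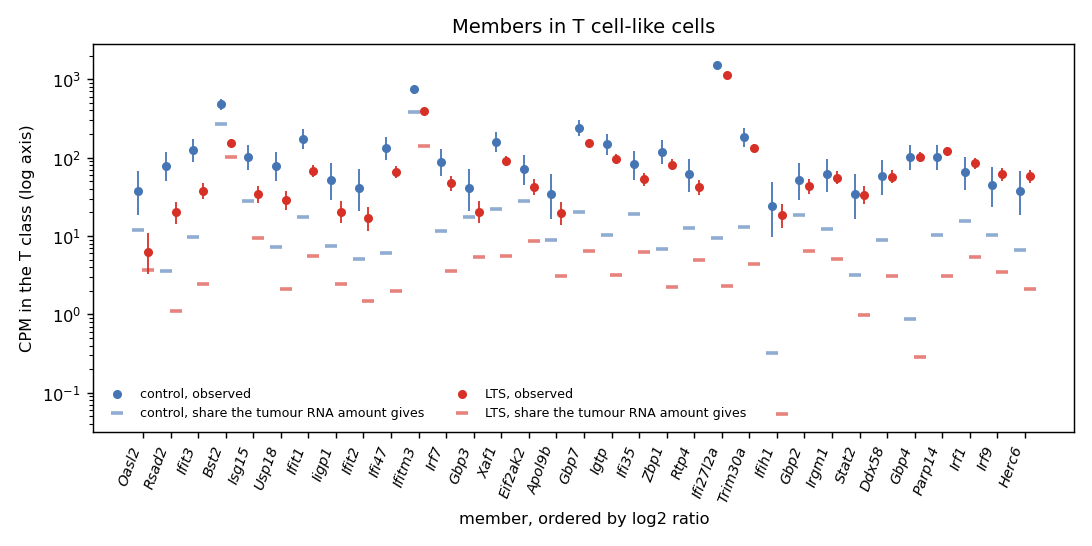
Level in CPM (log axis) of the 33 members past the filter in T cells, control in blue and LTS in red, with 95% counting intervals; short bars give the level that the amount of tumour RNA in the class would supply. Control points lie above LTS points for 29 of 33 members, from Oasl2 on the left to Herc6 on the right, and for Bst2 the short bars lie near the points.

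In endothelium GTPases and the less abundant effectors were lower in LTS. Iigp1, an effector of the IRG family, was at 181 CPM in control and 88.8 in LTS, 2.04-fold (1.68 to 2.47). Igtp was at 65.5 and 30.8 CPM, 2.13-fold higher in control (1.54 to 2.98). Summed over the 8 GTPases, control exceeded LTS 1.47-fold (1.36 to 1.59), and Irgm1 alone of them had the higher value in LTS. All 19 effectors summed to 1.05-fold higher in control (1.01 to 1.09), a sum made up mostly of Ifitm3 and Bst2. The 16 effectors other than Ifitm3, Bst2 and Ifi27l2a were at 618 and 405 CPM, 1.53-fold higher in control (1.39 to 1.68). The fold values here are without the 5 CPM that the 2-fold call adds, so Iigp1 (log2 ratio -0.99) and Igtp (-0.98) were just outside the call and Rsad2 (-1.78) was the 1 member inside it. Rsad2 was at 62.2 and 14.5 CPM, but a single cell held 47.7% of its control UMIs and another 76.0% of its LTS UMIs. The highest log2 ratios were those of Ifi27l2a (0.37) and Zbp1 (0.33). Intervals lay below 1 for 12 of 29 members (background 9.77%) and above 1 for 1 (background 9.57%). Summed marker lists of other cells gave 18.7 CPM in control and 84.2 in LTS for mural cells and 122 and 33.7 for erythroid cells in this class. They gave 1940 and 2426 CPM for microglia and 2136 and 2357 for monocytes. Ptprc was at 4.31 and 4.06 CPM here, against 247 and 277 in microglia and 473 and 553 in monocytes. The microglia and monocyte lists are therefore not read as an amount of those cells. The part of other cells in the difference was not tested. Tumour RNA stood at 37.6% and 43.9% of its own level, and 20 of 29 members were lower in LTS, against 3318 of 6498 genes.

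In monocytes the summed level was 1.02-fold higher in control (0.993 to 1.04). Ifit1 was at 189 CPM in control and 117 in LTS, the lowest ratio at -0.67, followed by Oasl1, an OAS-like translation regulator, at 126 and 89.8 CPM (-0.47). Gbp4 was at 35.4 and 63.0 CPM, 1.78-fold higher in LTS (1.24 to 2.56), and Irf1 was next at 0.22. Intervals lay below 1 for 9 of 37 members (background 15.7%) and above 1 for 2 (background 7.93%). Tumour marker genes stood at 29.8% of their tumour level in control and 8.25% in LTS monocytes. With that RNA taken off the members' median was -0.35 (all genes -0.02), and the summed ratio of LTS over control was 0.790, where it ran from 0.776 to 1.14 over all alternatives. As in T cells, the rescaling also lowers genes that are scarce in tumour cells. Irf7 went from 0.02 to -0.35, so the values after this step are not read as a result about the members.

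The microglia class held 2 clusters in unequal parts. Cluster 4 had 755 control and 405 LTS cells, while cluster 13 had 6 and 226, with P2ry12, Selplg, Siglech and Gpr34 among its leading genes. The members, which were left out of the clustering, were far lower in cluster 13: their sum was 1811 CPM there, 8190 in LTS cluster 4 and 7593 in control cluster 4. The cluster 13 sum was thus under the 2081 CPM of LTS tumour cells and the 2723 CPM of LTS uncalled barcodes. Within cluster 4 the median log2 ratio of LTS over control was 0.03 (all genes -0.02), with 0 of 36 members 2-fold lower or higher (background 0.464% and 0%). Rsad2 (114 and 84.5 CPM, -0.42) and Iigp1 (154 and 118 CPM, -0.37) had the lowest ratios in the whole class, and Oas1a (0.28) and Ddx58 (0.20) the highest. Tumour marker genes stood at 22.0% of their tumour level in control and 9.71% in LTS microglia, and taking that RNA off gave a class median of -0.27. That step's rescaling lowers genes scarce in tumour cells here too, as with Ifi27l2a, which went from 0.16 to -0.04. Weighting every cell equally moved the class median from -0.10 to -0.36, and the summed level was 1.03-fold higher in control over the class but 1.08-fold higher in LTS within cluster 4.

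Between the LTS clusters, 28 of 36 members were at least 2-fold lower in cluster 13 (background 6.04%), and 0 were 2-fold higher (background 11.2%), with a median log2 ratio of -1.49 (all genes 0.11). The filter is on the mean of both clusters. Dhx58, Zbp1, Usp18, Ifit2, Oasl1, Oas1a, Rsad2, Gbp4 and Ifi47 were under 20 CPM in cluster 13. They passed through their cluster 4 level alone, so these counts describe the members that passed. Ifi27l2a was at 1714 CPM in cluster 4 and 124 in cluster 13, a 13.8-fold difference (11.2 to 17.2). Bst2 was at 1041 and 119 CPM, 8.76-fold, and Irf7 at 198 and 21.0 CPM, 9.42-fold (5.68 to 16.9). Zbp1 was at 187 and 14.0 CPM, a difference of 13.4-fold from 10 UMIs in cluster 13. Other members differed less: Irf1 was at 94.9 and 85.3 CPM (1.11-fold, 0.850 to 1.48), and Igtp at 88.9 and 54.6 CPM (1.63-fold). Among the 36 members past the filter Irf9 alone was higher in cluster 13, at 44.5 CPM in cluster 4 and 76.9 in cluster 13. Apol9a and Apol9b, under the filter at 1.29 and 1.50 CPM in cluster 4, had 2 and 3 UMIs in cluster 13. Cluster 13 is almost wholly from the LTS library, so the library and a type of microglia cannot be told apart there, and its cells were compared after their values were seen.

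**Figure D4:**
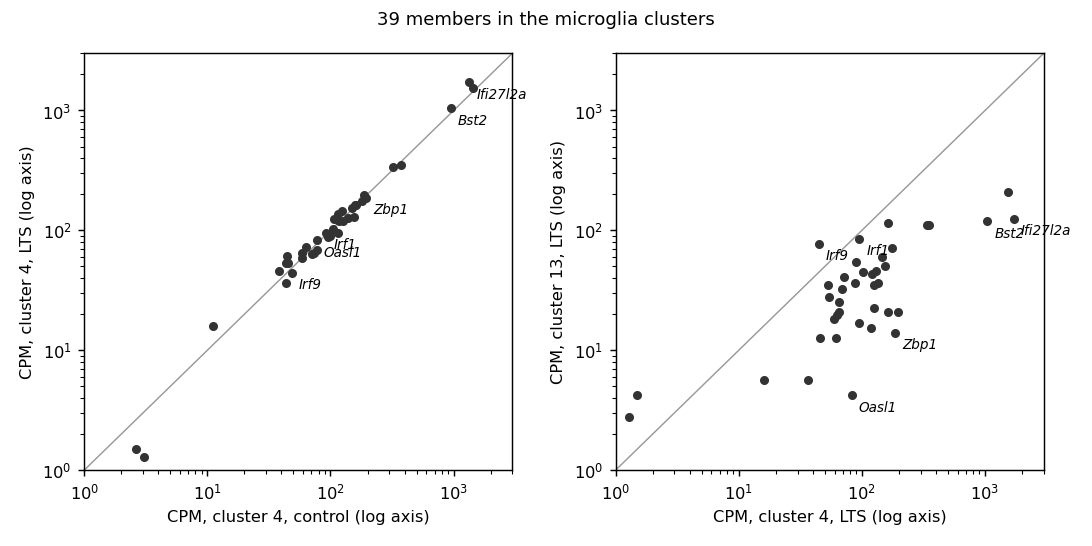
CPM of the 39 members in microglia (log axes, 1 point per member, grey line at equality). Left, cluster 4 in the control against the LTS library, with points along the line; right, cluster 4 against cluster 13 in the LTS library, where the points of Irf9 and of the scarce Apol9a and Apol9b lie above the line and the others below it.

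Tumour cells differed little between libraries, with a summed level 1.03-fold higher in control (1.02 to 1.03). Xaf1 was at 44.8 CPM in control and 31.4 in LTS, the lowest ratio at -0.45, and Gbp3 followed at -0.23. Irgm1, at 25.1 and 28.7 CPM (0.17), and Bst2, at 538 and 570 CPM (0.08), had the highest ratios. Intervals lay below 1 for 13 of 19 members (background 35.9%) and above 1 for 2 (background 24.1%). At the depth of this class, small ratios pass the counting interval. Without Ifitm3, Bst2 and Ifi27l2a the other 36 members summed to 802 CPM in control and 717 in LTS, 1.12-fold (1.11 to 1.13). The 7 tumour clusters ranged from 1322 CPM (cluster 10, control, led by Il11, Areg and Ptgs2) to 2747 CPM (cluster 5, LTS, led by Aspn, Postn and Mgp), and each cluster was within 1.23-fold of itself in the other library.

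Counted per cell, the members were spread unevenly. After thinning each cell to 1000 UMIs, tumour cells held a mean of 2.16 member UMIs in control and 2.10 in LTS, and 27.3% and 31.8% held none. The richest 10% of tumour cells held 39.5% and 42.9% of the member UMIs (38.9% and 42.5% unthinned). Monocytes held 11.4 and 11.8, with a variance 10.02 and 12.9 times the mean, and their richest 10% held 32.1% and 34.9% of the member UMIs. Microglia held 7.37 and 5.95, and 0.657% of control and 8.72% of LTS microglia held none, where cluster 13 alone held none in 22.6% of its LTS cells. T cells held 6.64 and 3.75 (unthinned sums 5457 and 3441 CPM), and 24.2% of control (16.0 to 34.1) and 7.88% of LTS T cells (5.64 to 10.7) had 10 or more. Endothelium held 4.91 and 4.05.

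**Figure D5:**
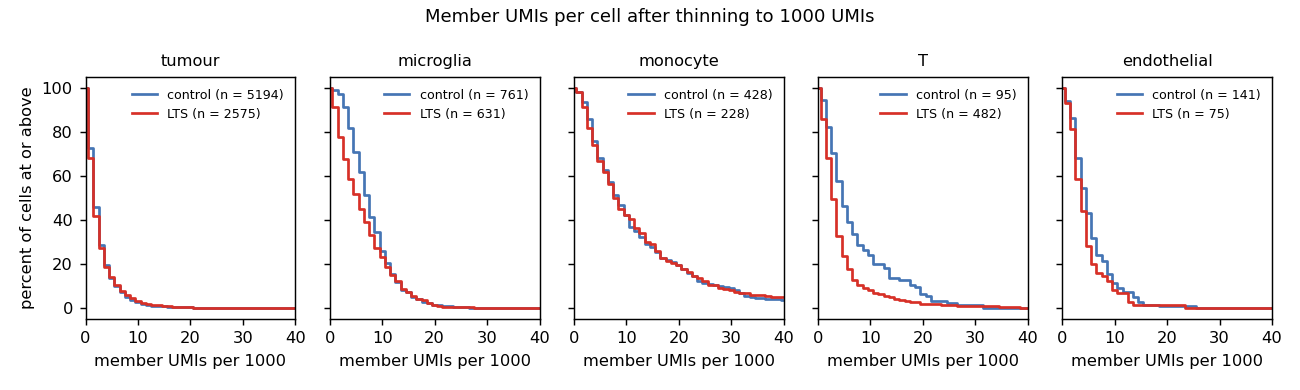
Percent of cells (y) with at least the given number of member UMIs (x) after thinning each cell to 1000 UMIs, by class, control in blue and LTS in red, with the number of cells in each legend. The curves overlap in tumour cells and monocytes, the LTS curve starts lower in microglia, and the control curve lies above in T cells, with 24.2% against 7.88% of cells at 10 or more.

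Other genes of the pathway, 73 in all of which 1 had no row in the tables, were described beside the members. Ligands were nearly missing: of 11 interferon genes, 10 control and 55 LTS UMIs were in tumour cells, and none passed the filter outside T cells. There Ifng, which encodes interferon gamma, was at 47.7 CPM (14 UMIs) in control and 69.5 CPM (132 UMIs) in LTS, with an interval of the ratio from 0.84 to 2.73. Receptors and kinases differed little in tumour cells, where Ifnar1 was at 28.8 and 28.3 CPM and Ifngr1 at 23.4 and 23.1. All 8 passing receptors and kinases had the higher value in LTS monocytes, at a median log2 ratio of 0.26, and 7 of 8 did in microglia, at 0.22. Of all genes, 2637 of 5875 were higher in LTS monocytes (median -0.04) and 2915 of 6116 in LTS microglia (median -0.01). The part of the uneven tumour RNA of both classes, given above, was not tested for this list. The members' own medians in these classes, -0.06 and -0.10, changed sign under some alternatives.

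In T cells Socs1, an inhibitor of the kinases, was at 116 CPM in control and 61.6 CPM in LTS. Irf8, a factor of myeloid and dendritic cells, was at 266 and 97.9 CPM. A further list of 32 interferon-induced genes, 31 with a row, had 22 past the filter in T cells, of which 7 were at least 2-fold lower and 1 at least 2-fold higher in LTS, with a median log2 ratio of -0.74 (backgrounds 6.11% and 2.81%, all genes -0.14). Mx1, an antiviral GTPase, was at 71.6 and 26.8 CPM there, and Nlrc5, the activator of MHC class I genes, at 20.5 and 55.2 CPM. In endothelium 14 of the list passed, with a median of -0.39, and 11 were lower in LTS, against 3318 of all 6498 genes. The chemokine Cxcl10 was at 130 and 38.3 CPM in that class, with 78.8% of its LTS UMIs in 1 cell, and Cxcl9 at 72.7 and 241 CPM, with 89.4% of its LTS UMIs in 1 cell. In tumour cells 9 of 9 that passed were lower, with a median of -0.12, against 3584 of all 6338 genes.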

How the data were processed

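Single-cell 3′ RNA libraries of 1 control and 1 LTS suspension were analysed. The authors deposited unnormalized UMI counts per gene and barcode, which per the file headers come from Cell Ranger 4 and per the submitters' processing notes used mm10. No source used here names the annotation release. Both tables list 6794880 barcodes, so cells were called here as barcodes with at least 1000 UMIs, at least 300 genes and at most 15% mitochondrial UMIs. This lost 817 control and 604 LTS barcodes to mitochondrial UMIs and 0 and 1 to genes. No doublet caller was run. Both libraries were clustered together without integration (scanpy 1.11.5, leidenalg 0.10.2, python 3.11.15), on 2000 variable genes without the members and pathway genes, 30 components and 15 neighbours at resolution 1. A cluster was named when at least 3 markers of a class were found in 10% of its cells at 2 times the level elsewhere. Those high in Ptprc could take only immune names, and the rest only other names. Where Ptprc was low and Y-linked genes were under 10% of the median of the high-Ptprc clusters, tumour was the only name open. For that name the markers were read against the high-Ptprc clusters and not against all others. Clusters with low UMIs or fewer markers stayed unnamed (1567 control and 627 LTS cells).

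Counts were summed per class and library, scaled to CPM, and compared as log2((LTS + 5)/(control + 5)) for genes with a mean of at least 20 CPM. Ratios carry exact conditional 95% intervals and shares Clopper-Pearson intervals. These treat UMIs as independent and leave out differences between cells and animals. A difference was called at 2-fold, with no test. The amount of tumour RNA in a class is the median, over 11 tumour markers, of its level as a percent of that in tumour cells. The genes, lists, markers and comparisons were chosen with earlier results of these data known. The rule took, by role, the members with most UMIs, and per class those with the 2 highest and the 2 lowest log2 ratios. Genes named beyond it were chosen after their values were seen. Promoters came from RefSeq tables (GRCm38.p6).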

Additional observations from a re-analysis of the deposited data

How the results depend on the processing

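The members' median log2 ratio stayed below 0 under all 20 alternatives in T cells (-1.15 to -0.38), all 17 in endothelium (-0.59 to -0.19) and all 15 in tumour cells (-0.17 to -0.05). It was below 0 under 16 of 18 in microglia (-0.36 to 0.03) and 13 of 17 in monocytes (-0.39 to 0.13). The microglia median of -0.10 moved to -0.36 with equal weight of cells, -0.27 with cells thinned to 1000 UMIs, -0.27 with the RNA of uncalled barcodes taken off and -0.27 with the RNA of tumour cells taken off. Where RNA was taken off, the rescaling also lowers genes scarce in tumour cells, as described for T cells. The cause of these moves was not tested. The summed level in microglia, 0.969-fold in LTS over control, reversed to 1.04 with cells called from 500 UMIs and to 1.08 in cluster 4 alone. Calling from 500 UMIs named 52035 control and 3944 LTS barcodes as tumour, against 5194 and 2575 in the report. It named 1509 and 1117 as microglia, so the classes of that alternative differ from those of the report. The count of members at least 2-fold lower in T cells, 9 in the report, was 5 with a mean of 50 CPM, where fewer genes are tested, and 22 and 23 with the RNA of uncalled barcodes or of tumour cells taken off, where 18.2% and 14.1% of all genes were called as well. In endothelium that count, 1 in the report, was 0 to 9 over the alternatives. In microglia, monocytes and tumour cells it reached 1 at most. The count at least 2-fold higher reached 3 in T cells, 2 in endothelium and 1 in monocytes, and was 0 throughout in microglia and tumour cells. Apart from the 18.2% and 14.1% above, shares of all genes called are not given for these alternatives. The counts therefore describe the members only. Restricting microglia to cluster 4, T cells to those with Cd3 and Cd8 UMIs, and T cells to those outside the 10 with most UMIs per library was chosen after seeing the data. The second of these gave the T median of -0.38, from 19 control cells, and the third -0.82.

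No paired analysis was possible because each group has 1 library. Depth limits the T class most, at 1600 member UMIs in control, and the class names rest on markers chosen with earlier results known.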

Other observations

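Interferon beta transcripts were found in few cells of the named classes, which were singled out after their values were seen. All 41 Ifnb1 UMIs of LTS tumour cells came from 1 cell. It had 53573 UMIs in all, a UMI of 35 of the 39 members and 9632 CPM of members, which ranked 62 of 2575 LTS tumour cells. It also held 161 UMIs of the chemokine Cxcl10, 4.89% of those in its class, beside 26 of Isg15 and 14 of Rsad2. In the control library the tumour cell with most Ifnb1 had 3 UMIs, 25 of the 39 members and 5597 CPM of members, ranking 425 of 5194. These are values of single cells and carry no error.

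Across tumour cells thinned to 1000 UMIs, the genes outside the members whose counts were most like the members' sum were the same 9 in the first 10 of both libraries: Ly6e, Lgals3bp, Ifi202b, Rnf213, B2m, H2-K1, Psmb10, H2-D1 and Tapbp. B2m, H2-K1, H2-D1, Psmb10 and Tapbp belong to antigen presentation by MHC class I. Pearson's r over cells was 0.26 in control and 0.28 in LTS for Ly6e, 0.24 and 0.26 for Ifi202b, and 0.22 and 0.25 for B2m, over 5194 and 2575 cells. The counts are sparse and share each cell's library, so these values are a description.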
